A study of Mus musculus with 4 samples.

Results

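The genes described here act with activation-induced cytidine deaminase (AID) or process the lesions it leaves during class switching and somatic hypermutation. They were chosen as a list of 35 gene symbols, and each gene stands for its probe set with the highest mean log2(signal + 16) over the arrays. Of the 35 genes, 34 had a probe set of their own symbol, out of 18193 genes measured, and all 34 passed the filter on low signals. Dclre1c, the end-processing nuclease Artemis, was matched to no probe set. The RNA came from 4 clones of the plasmacytoma line J558, derived from BALB/c mice, each hybridised to a single Affymetrix Mouse 430 2.0 array. In 2 AID-silenced clones, 1 in each of 2 labelled pairs, a silencing vector with an AID-targeting sequence had been transfected. In 2 control clones, again 1 in each pair, the same vector was empty. All 4 clones carried a cotransfected Neo vector and were selected with G418, and each group consists of single clones grown from transfected cells, so that every value belongs to a clone as well as to a treatment.

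AID deaminates cytosine to uracil in DNA that is exposed during transcription. The uracil is removed by the uracil glycosylase Ung or recognised as a mismatch. Base excision and mismatch enzymes then turn it into nicks, gaps and double-strand breaks. At immunoglobulin switch regions such breaks are sensed by Atm and the Mre11 complex, held by the Trp53bp1 and Rif1 proteins, and joined by classical end joining. Off the target, the same repair protects the genome of B cells and plasma cells from mutation and translocation.

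The arrays shared a 2% trimmed mean signal of 500, and their median signals lay between 52.7 and 54.9. The 10 plasma cell markers measured were all above the filter, at summed signals of 153964 and 179288 in the AID-silenced clones and 140368 and 176168 in the control clones. Of the markers of other cells, 2 of 7 for mature B cells, 1 of 5 for T and NK cells and 2 of 7 for myeloid cells passed the filter. Their summed signals were 3466 and 2807 in AID-silenced clones and 3279 and 3877 in control clones for B cell markers, mostly Cd79b, and 74.3 and 144 in AID-silenced clones and 221 and 234 in control clones for T and NK cell markers. The myeloid markers summed to 535 and 741 in the AID-silenced clones and 384 and 1024 in the control clones. Mpo alone gave 653 of the 1024. The part of these markers in the results was not tested. Fewer expressing cells cannot be told apart from less RNA per cell or, for markers below the filter, from background signal. With 2 arrays in each group, the number of arrays limits the precision of every value.

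The comparison asked whether the genes that cooperate with AID or repair its lesions differed in clones in which AID was silenced. None of the 34 genes passed limma at an adjusted p of 0.05, where 0.00888% of the 22519 tested probe sets did (2 probe sets). With the pair as a block, again 0 of the 34 passed, against 0.0355% of all probe sets. At an unadjusted p under 0.05, limma gave 1 of the 34 genes, Hmces, where 3.89% of all 10475 tested genes reached that level. In AID-silenced clones 6 of the 34 genes were higher in both pairs, where 26.7% of all tested genes were. A further 8 were lower in both (27.5% of all genes), and 20 differed in opposite directions (45.8% of all genes). None reached a 2-fold difference of the same sign in pair 1 and pair 2, as 1.01% of all genes did.

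The size of the differences was also set against that of all genes. The median log2 difference over the 34 genes was −0.05, with 0.05 in pair 1 and −0.10 in pair 2, and over all tested genes it was −0.0048. Without regard to sign, the median difference was 0.17 in pair 1 and 0.25 in pair 2 for the 34 genes, and 0.23 and 0.27 for all genes. At least 2-fold differences were found for 0 of the 34 genes in pair 1 (5.08% of all genes) and for 2 in pair 2, Atm and Lig4 (6.94% of all genes). Both AID-silenced values lay above both control values for 3 genes (14.3% of all genes), Hmces, Rpa1 and Lig4. They lay below both for 5 genes (14.4% of all genes, and 28.7% for either direction), Supt5, Polb, Atm, Mre11a and Rnf8. An exact permutation test of 2 clones against 2 cannot give a two-sided p below 0.333.

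**Figure D1:**
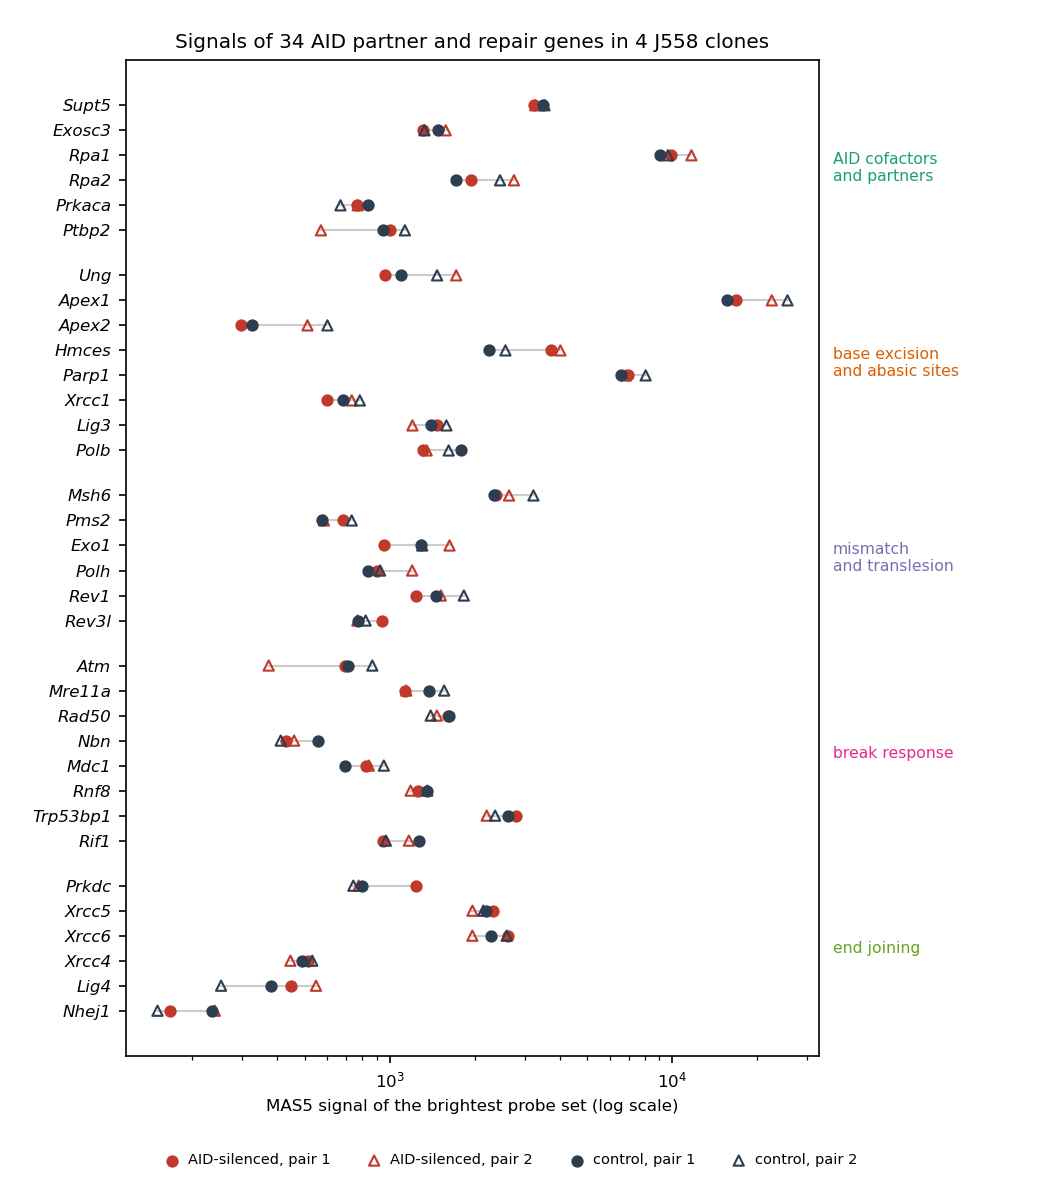
MAS5 signal (log axis) of the brightest probe set of each of the 34 genes, by functional group, with 1 symbol for each clone (filled circles, pair 1; open triangles, pair 2; red, AID-silenced; dark, control). Hmces shows both red symbols to the right of both dark ones, while in most rows the colours are mixed; signals of different genes are not comparable with each other.

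**Figure D2:**
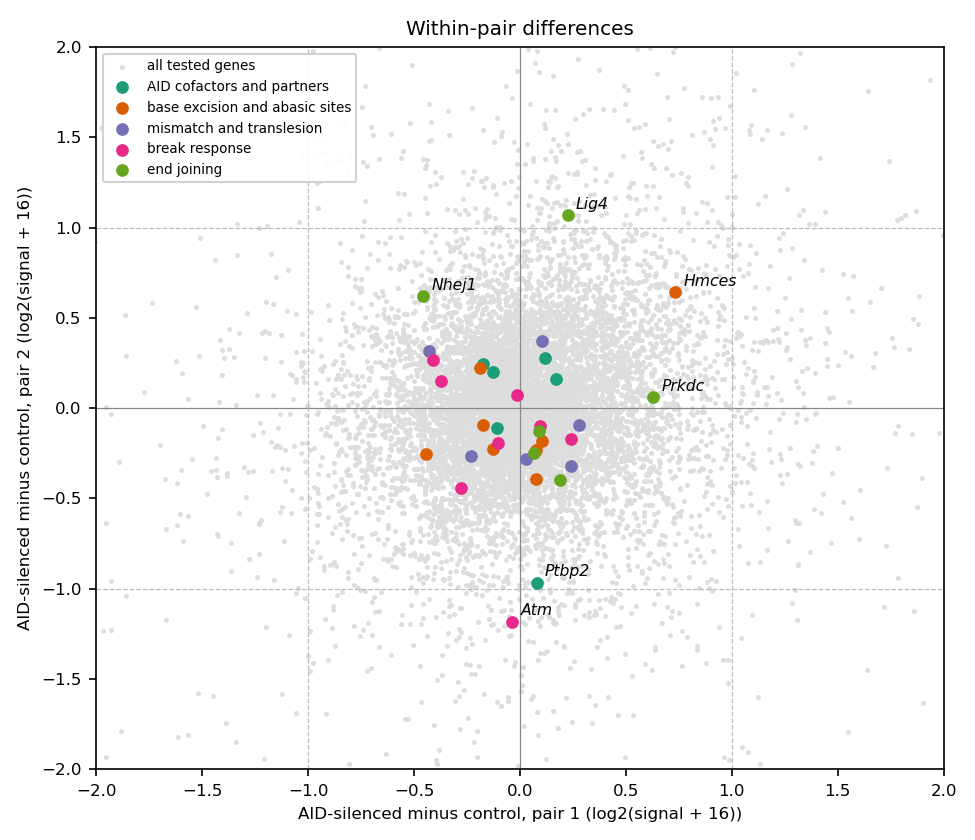
AID-silenced minus control difference in log2(signal + 16) in pair 1 (horizontal) and pair 2 (vertical) for the 34 genes (coloured by group) and all tested genes (grey; axes end at 2, so more distant genes are not drawn). Dashed lines mark 2-fold; no gene of the 34 lies beyond 2-fold on both axes, and Atm and Lig4 pass it in pair 2.

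The first group holds the proteins that bring AID to its targets. Supt5, a pausing factor of RNA polymerase II that associates with AID, had signals of 3241 and 3272 in the AID-silenced clones and 3499 and 3528 in the control clones. The groups did not overlap, but the log2 difference was −0.11 in each pair, smaller than its standard error of 0.20 (n = 2 per group). Exosc3, a subunit of the RNA exosome that gives AID access to the template strand, had 1310.2 and 1576 in the AID-silenced clones and 1479.6 and 1326 in the control clones, and the clones were mixed. Replication protein A binds single-stranded DNA and interacts with phosphorylated AID. Its large subunit gene Rpa1 had signals of 9853 and 11678 in AID-silenced clones and 9075 and 9643 in control clones. The log2 difference of Rpa1 was 0.20 ± 0.19 (SE, n = 2 per group), and its second probe set differed by −0.02 in pair 1 and 0.20 in pair 2. The middle subunit gene Rpa2 had 1938 and 2749.8 in AID-silenced clones and 1721 and 2455 in control clones, where the pairs, not the groups, stood apart.

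Prkaca, the catalytic alpha subunit of protein kinase A, which phosphorylates AID, had signals of 763 and 770.4 in AID-silenced clones and 837 and 669 in control clones. Both AID-silenced values lay between the control values. The second Prkaca probe set was instead higher in both pairs, by 0.06 in pair 1 and 0.36 in pair 2. Ptbp2, a splicing regulator that binds AID and helps its targeting to switch regions, had 999 and 571 in AID-silenced clones and 945 and 1131 in control clones. Only the AID-silenced clone of pair 2 was low, so that the difference of Ptbp2 was 0.08 in pair 1 and −0.97 in pair 2, a size that 7.5% of all tested genes exceeded in pair 2. Its second probe set, with signals of 42.0 and 14.7 in AID-silenced and 49.2 and 21.2 in control clones, was below the filter. In this group of 6 genes, 2 were higher in both pairs, 1 was lower in both and 3 were opposite. The median log2 difference was 0.04, and its sign turned when 1 clone was left out.

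Base excision begins with Ung and continues with the endonucleases that cut at the abasic site. Ung had signals of 958 and 1718 in AID-silenced clones and 1094 and 1470.1 in control clones. The lowest and the highest value were both from AID-silenced clones, and the differences were −0.19 in pair 1 and 0.22 in pair 2. Apex1, the main abasic endonuclease, had 16780.2 and 22472 in the AID-silenced clones and 15609 and 25543 in the control clones. Its 2 further probe sets differed by −0.10 and −0.10, and by −0.29 and −0.33, in pairs 1 and 2. Apex2, a related nuclease implicated in germinal centre B cells, had 297 and 511 in AID-silenced clones and 326 and 602 in control clones. All 3 genes were ordered by pair and not by group.

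Hmces encodes a protein that binds abasic sites in single-stranded DNA covalently and shields them from cleavage. It had signals of 3728 and 4014 in the AID-silenced clones and 2237 and 2566 in the control clones. Both AID-silenced clones were clearly above both controls, 1.67-fold in pair 1 and 1.56-fold in pair 2. The log2 difference of 0.69 ± 0.21 (SE, n = 2 per group) gave an unadjusted limma p of 0.0141 and adjusted p = 0.9996, and adjusted p = 0.397 with the pair as a block. It ran from 0.59 to 0.79 over all the alternatives, leaving out any 1 clone included. It was the only gene of the 34 with differences of 0.5 log2 units or more and one sign in pairs 1 and 2, as 5.24% of all tested genes had. A single probe set stands for Hmces, so no second measurement of it was available. In pair 1, 10.6% of all tested genes had a larger difference, and in pair 2 16.6% had.

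The remaining base excision genes differed less. Polb, the polymerase that fills the gap, had signals of 1307 and 1351 in the AID-silenced clones and 1781.5 and 1616 in the control clones. The groups did not overlap, and the log2 difference of Polb was −0.35 ± 0.22 (SE, n = 2 per group, limma adjusted p = 0.9996). Its second probe set ran the same way at −0.34 and −0.16 in pairs 1 and 2, whereas the 2 dimmer ones gave −0.30 and 0.07, and −0.42 and 0.82. With the mean of all probe sets, Polb was opposite in the pairs, at 0.12 in pair 2. Parp1, a sensor of strand breaks, had 6939 and 6847 in AID-silenced clones and 6593 and 8043 in control clones. Its dimmest probe set differed by 0.29 and 0.95 in pairs 1 and 2, unlike the brightest at 0.07 and −0.23. Xrcc1, the scaffold of single-strand break repair, had 602 and 734 in AID-silenced and 681 and 784 in control clones. Its partner Lig3, the ligase that seals the nick, had 1470.3 and 1202 in AID-silenced and 1397 and 1586 in control clones. All 4 of the Lig3 probe sets above the filter were opposite in the pairs. In this group of 8 genes, 1 was higher in both pairs, 3 were lower in both and 4 were opposite.

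The mismatch and translesion genes mostly followed neither group. Msh6, a subunit of the mismatch recognition complex, had signals of 2378 and 2642.5 in AID-silenced clones and 2333 and 3223 in control clones. The highest value was that of the control clone of pair 2. Pms2, the endonuclease subunit that cuts next to a mismatch, had 682 and 585 in AID-silenced and 575 and 733 in control clones. This probe set differed by 0.24 in pair 1 and −0.32 in pair 2. The dimmer Pms2 probe sets ran the reverse way, at −0.10 and 0.45, and −0.93 and 0.42, in pairs 1 and 2. Exo1, the exonuclease that widens the gap, had 955 and 1627 in the AID-silenced clones, on either side of 1291 and 1302 in the control clones. The second probe set of Exo1 repeated this, with differences of −0.48 in pair 1 and 0.36 in pair 2.

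Polh, the polymerase that adds mutations at A and T bases, was the member of this group that was higher in both pairs, with 903 and 1199.9 in AID-silenced clones and 839 and 924 in control clones. The values overlapped, and the log2 difference of 0.24 was smaller than its standard error of 0.26. The dimmer Polh probe sets above the filter gave 0.08 and −0.04, and 0.13 and 0.31, in pairs 1 and 2. Rev1, a deoxycytidyl transferase that organises translesion synthesis, was lower in both pairs. It had signals of 1237 and 1516 in AID-silenced clones and 1456 and 1828 in control clones. Rev3l, the catalytic subunit of polymerase zeta, had 941 and 768 in AID-silenced and 772.5 and 821 in control clones. None of the 6 genes had groups that did not overlap, and 4 of them were opposite in the pairs.

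In the break response, Atm, the kinase that signals double-strand breaks, had the widest within-pair difference among the 34 genes, although the mean differences of Hmces and Lig4 were larger. Its signals were 694 and 373 in the AID-silenced clones and 712 and 867 in the control clones. The AID-silenced clone of pair 2 stood well below the other 3 clones, whereas that of pair 1 lay just below its control. The difference of Atm was thus −0.04 in pair 1 and −1.18 in pair 2, and 4.7% of all tested genes had a larger difference in pair 2. A second probe set, with 622 and 379.9 in AID-silenced clones and 744.5 and 832 in control clones, gave −0.25 and −1.10. The limma fit gave a log2 difference of −0.61 ± 0.35 (SE, n = 2 per group) with adjusted p = 0.9996. Without the AID-silenced clone of pair 2 it was −0.18.

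Mre11a, the nuclease of the complex that binds broken ends, had signals of 1131.5 and 1144 in AID-silenced clones and 1377 and 1557 in control clones. Its groups did not overlap, with a log2 difference of −0.36 ± 0.22 (SE, n = 2 per group, limma adjusted p = 0.9996), and its dimmer second probe set was opposite in the pairs at 0.27 and −0.42. The partners of Mre11a were mixed. Rad50, the ATPase of the complex, had 1604 and 1468 in AID-silenced clones and 1621 and 1395 in control clones, and Nbn, which recruits Atm, had 428 and 459 in AID-silenced and 558.3 and 411 in control clones. Rnf8, a ubiquitin ligase that marks chromatin around breaks, had 1259 and 1185 in AID-silenced clones and 1356 and 1357 in control clones, a log2 difference of −0.15 against a standard error of 0.22. Mdc1, the adaptor on phosphorylated H2AX, had 827 and 843 in AID-silenced clones, between 697 and 953 in control clones.

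The proteins that protect ends from resection were mixed. Trp53bp1, a reader of marked chromatin, had signals of 2793 and 2202.5 in AID-silenced clones and 2612 and 2359 in control clones, with differences of 0.10 and −0.10, and its second probe set gave 0.38 and −0.44. Rif1, its effector, had 949 and 1168 in AID-silenced clones and 1267 and 969 in control clones. The differences of Rif1 were −0.41 in pair 1 and 0.27 in pair 2. Its further probe sets above the filter gave −0.24 and −0.18, −0.29 and 0.37, and −0.07 and −0.29. Of the 8 break response genes, 3 were lower in both pairs, none was higher in both and 5 were opposite, with a median log2 difference of −0.09.

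End joining is carried out by the Ku dimer, the kinase Prkdc and the ligase complex. Xrcc5 and Xrcc6 encode the Ku subunits. Xrcc5 had signals of 2326 and 1961 in AID-silenced clones and 2182 and 2143 in control clones. Xrcc6 had 2614 and 1959.6 in AID-silenced clones and 2289.5 and 2593 in control clones. In both genes the AID-silenced clone of pair 1 was the highest and that of pair 2 the lowest. Prkdc, the kinase that Ku recruits, had 1241 and 776 in the AID-silenced clones and 798 and 743 in the control clones, so that only the AID-silenced clone of pair 1 was high. It differed by 0.63 in pair 1 and 0.06 in pair 2.

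Lig4, the ligase of end joining, had signals of 448 and 548 in the AID-silenced clones and 381 and 253 in the control clones. The groups did not overlap, and the AID-silenced clone was 1.18-fold higher in pair 1 and 2.17-fold higher in pair 2, where the control clone had the lowest value of the 4. The log2 difference was 0.65 ± 0.32 (SE, n = 2 per group, limma adjusted p = 0.9996), and it was 0.37 without the control clone of pair 2. Xrcc4, which holds Lig4 in a complex, did not follow it, with 512.5 and 445 in AID-silenced clones and 489 and 532 in control clones. Nhej1, a further factor of this complex, had 166 and 240.4 in AID-silenced clones and 234 and 151 in control clones, so that the groups overlapped widely. Of the 6 end joining genes measured, 2 were higher in both pairs, none was lower in both and 4 were opposite.

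The pair differences of Atm were then set beside its neighbours on chromosome 9, an addition made after the values were seen. Atm and Npat, a regulator of histone genes, are transcribed in opposite directions from starts that lie close together. The 60 bases between the annotated starts are shown because Atm and Npat share them. They lie at chr9:53536829-53536888 of GRCm38.p6 (RefSeq), read on the minus strand towards Atm. Capitals mark a GC box (GGGCGG) and a CCAAT box (CCAAT, here on the opposite strand).
Atm and Npat intergenic stretch: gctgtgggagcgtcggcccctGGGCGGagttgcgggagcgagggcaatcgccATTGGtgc

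Npat had signals of 559.7 and 515 in AID-silenced clones and 595 and 610.0 in control clones, and differed by −0.09 in pair 1 and −0.24 in pair 2, less than Atm. Of the 5 tested genes on each side of Atm, 9 of 10 had less signal with AID silenced in pair 2 and 7 of 10 in pair 1. These counts include nearly equal values, such as Pou2af1 at −0.01 in pair 2 and Rdx at −0.01 in pair 1. The median differences were −0.55 in pair 2 and −0.05 in pair 1, beside −0.0084 and 0.00096 over all tested genes. The share of all tested genes lower in a single pair was not counted. Across Atm from Npat, the nearest tested gene was Ddx10, an RNA helicase gene. Its signals were 1005 and 917 in AID-silenced clones and 1158 and 2106 in control clones. Cul5, a cullin gene, had 399.7 and 332 in AID-silenced clones and 413 and 739.9 in control clones. In Ddx10 and Cul5 it was the control clone of pair 2 that was high. For Atm the AID-silenced clone of pair 2 was low, and its control clone of pair 2 was the highest at 867. Sik2 resembled Atm, with 453 and 290 in AID-silenced clones and 426 and 497 in control clones. Slc35f2 went the other way, with 795 and 628 in AID-silenced clones and 619 and 7.6 in control clones. The value of 7.6 is under 49.4, the mean signal that the filter on low signals corresponds to. The neighbours of Lig4, Ptbp2 and Hmces had median differences in pair 2 of 0.16, −0.07 and 0.07, with 4, 6 and 4 of 10 lower in pair 2.

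**Figure D3:**
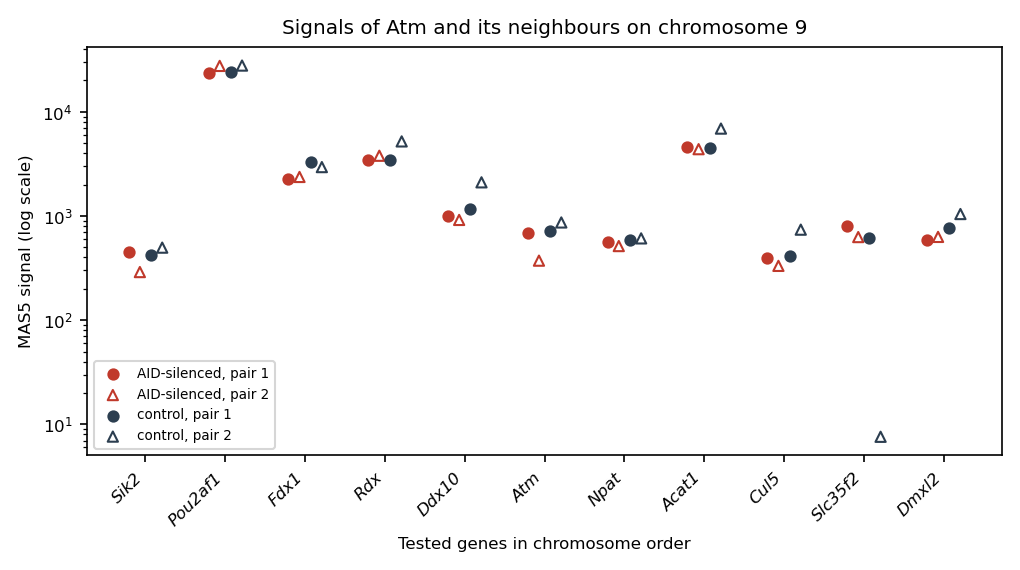
MAS5 signal (log axis) of Atm and of the 5 tested genes on each side of it, in chromosome order, with 1 symbol for each clone (filled circles, pair 1; open triangles, pair 2; red, AID-silenced; dark, control). The red triangle stands low for Atm and Sik2, the dark triangle stands high for Ddx10, Rdx, Acat1 and Cul5, and the dark triangle of Slc35f2 is at 7.6.

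The upstream sequence of Hmces, the gene with the clearest difference between groups, was also read, a choice made after the values were seen. A link between this sequence and the signal of Hmces was not tested. The 30 bases at chr6:87913915-87913944 of GRCm38.p6 (RefSeq, plus strand) begin 61 bases before the start given in the promoter table. Capitals mark a CRE core (TGACG, here on the opposite strand) and 2 overlapping GC boxes (GGGCGG).
Hmces upstream stretch: CGTCAcgtcggGGGCGGGGCGGggttaccg

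Among the 250 bases upstream of 27 of the genes that had a promoter entry, searched on both strands, a GC box was found in 21, against 32.9% of all 27025 promoters. A CCAAT box was found in 13 (34.5% of all) and a CRE core in 10 (17.9% of all).  The E box CACGTG was found in 7 (6.05% of all). Of the other motifs searched, an NRF1 site was found in 4 (3.86% of all) and an ETS site in 2 (2.93% of all). No match was found for a TATA box (TATAAA; 13% of all) or an E2F site (0.437% of all). Both sets were compared without regard to base composition, and a match describes the letters only.

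Between the pairs, 4 of the 34 genes reached an unadjusted limma p under 0.05, where 15.5% of all tested genes did. None passed at an adjusted p of 0.05, and neither did any of the 22519 probe sets (0%, with 3037 at an unadjusted p under 0.05). The pairs did not overlap for 14 of the 34 genes (48.8% of all genes). Values of pair 2 lay above those of pair 1 in both kinds of clone for 10 of the 34 genes (19.5% of all genes) and below them for 4 (29.3% of all genes). These 10 were 4 of the 8 base excision genes, 4 of the 6 mismatch and translesion genes, 1 of the 6 AID cofactors and 1 of the 8 break response genes. Of the 6 end joining genes it was 0, and the lists were not tested against each other. For Exo1, 1 of the 10, the control clones were almost equal, at 1302 in pair 2 and 1291 in pair 1. Apex2 averaged 557 in pair 2 and 312 in pair 1, a log2 difference of 0.80 ± 0.23 (SE, n = 2 per pair, limma adjusted p = 0.269). Ung averaged 1594 in pair 2 and 1026 in pair 1 (0.63 ± 0.19, adjusted p = 0.293), and Apex1 24007 and 16195 (0.57 ± 0.12, adjusted p = 0.245). Rpa2 averaged 2602.5 in pair 2 and 1829.7 in pair 1 (0.50 ± 0.18, adjusted p = 0.324). In each of these 4 genes both values of pair 2 were above both values of pair 1. The 4 genes lower in pair 2 were Rad50, Trp53bp1, Prkdc and Xrcc5. Over the 34 genes the median gap between clones, without regard to sign, was 0.28 for the AID-silenced and 0.21 for the control clones, and over all genes it was 0.31 and 0.33.

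**Figure D4:**
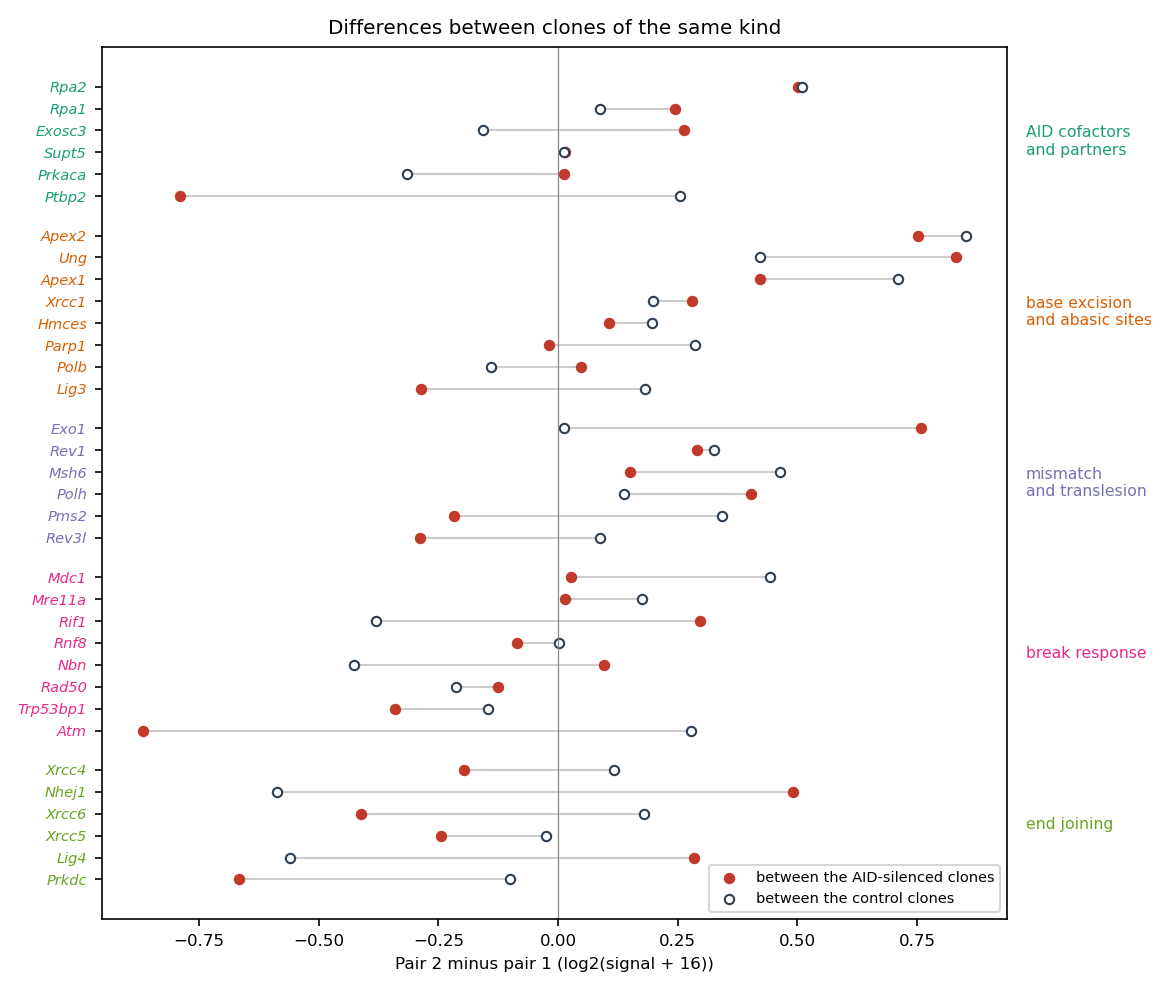
Difference of pair 2 minus pair 1 in log2(signal + 16) for each of the 34 genes, between the AID-silenced clones (red, filled) and between the control clones (open), by functional group. Apex2, Ung, Apex1 and Rpa2 lie to the right of 0 for both kinds of clone, while Atm, Ptbp2, Nhej1 and Lig4 have symbols on opposite sides of 0.

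Other genes of the same pathways were listed alongside, 87 in all, of which 76 were measured and 74 tested. None passed limma at an adjusted p of 0.05 (0.00888% of all probe sets), and 1, Nthl1, had an unadjusted p under 0.05 (3.89% of all genes). Of the 74 genes, 14 were higher in both pairs (26.7% of all genes), 31 were lower in both (27.5%) and 29 were opposite (45.8%), with a median log2 difference of −0.08. Of the 31, 18 were among the 32 genes of AID targeting, splicing and RNA surveillance. The others were 6 of 14 base excision, 2 of 10 mismatch and translesion, 4 of 13 break response and 1 of 5 end joining genes. Among the 74, both AID-silenced values lay above both controls for 10 (14.3% of all genes) and below them for 20 (14.4% of all genes). Of these 20, 10 were genes of AID targeting, splicing and RNA surveillance. No test of these lists as a whole was made.

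The genes named next are those with the largest differences of one sign in both pairs, so they do not stand for their lists. Nthl1, a DNA glycosylase which removes oxidised pyrimidines, had signals of 934 and 657 in the AID-silenced clones and 1343 and 1273 in the control clones (log2 difference −0.73 ± 0.27, SE, n = 2 per group, limma adjusted p = 0.9996). Mbd4, a glycosylase for uracil and thymine opposite guanine, had 1089.9 and 964 in AID-silenced clones and 749 and 747 in control clones. Smug1, a uracil glycosylase that can act beside Ung, had 221 and 276 in AID-silenced clones and 198 and 187 in control clones. In each of the 3 genes the groups did not overlap.

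Of the remaining genes named from these lists, Ywhaq, an adaptor of the family that binds switch regions together with AID, had 22425 and 25423 in AID-silenced clones and 18479 and 18293 in control clones. The end joining polymerase gene Polm had 763 and 640.4 in AID-silenced and 636 and 559.8 in control clones. Paf1, of the elongation complex, had 242 and 299 in AID-silenced clones and 372.5 and 421 in control clones. Dis3, a catalytic subunit of the RNA exosome, had 1515 and 1738.5 in AID-silenced clones and 2028 and 2358 in control clones. Xrn1, an RNA exonuclease, had 324 and 386 in AID-silenced and 495 and 486 in control clones. The pairs shared the sign of the difference in all 5 genes because they were chosen so, and limma gave adjusted p = 0.9996 for each.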

How the data were processed

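The authors deposited 1 intensity for each probe set and clone, on a linear scale, computed with MAS5 per the submitters' processing notes; the version is not given in the sources used here. All columns were used. Of 45101 probe sets, 64 Affymetrix controls were left out, and 22519 in the upper 0.5 by mean log2(signal + 16) were tested. Platform symbols were used. Sequences and gene order come from RefSeq tables of GRCm38.p6, matched by symbol or gene identifier. Comparisons between groups used all 4 arrays in limma 3.58.1 with R 4.3.3 and statmod 1.5.0 (trended, robust eBayes), with Benjamini-Hochberg adjustment over all probe sets. The fitting code was tested on simulated data. The unpaired fit is the main one. Clones were taken as pairs because the labels number them so and the series text names pairs for RNA extraction; as a check, pair 2 minus pair 1 correlated between AID-silenced and control clones across probe sets (r = 0.306, rho = 0.336), and the block entered an alternative. Each clone has 1 array, so p-values measure only the spread between these clones, which may be technical. The alternatives were median scaling, quantile normalisation, pseudocounts of 1 and 64, no filter and a stricter one, the mean of probe sets, the block, a plain prior and each clone left out in turn. The members and lists were chosen with earlier results of these data known. All members could be named; of the pathway lists, genes past the threshold were to be named, or else up to 4 in each direction whose pairs shared a sign, ranked by the smaller of the pair differences. The level of the silenced gene is not reported here, so the silencing was not checked and the groups rest on the labels. Figures were drawn with matplotlib 3.10.9.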

Additional observations from a re-analysis of the deposited data

Results flagged for a closer look

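By their brightest probe sets, Ptbp2 and Nhej1 differed in opposite directions in the 2 pairs, with the pair differences more than 1 log2 unit apart. For Ptbp2 the AID-silenced minus control difference in pair 2 was below that in pair 1 by a log2 value of −1.05. For Nhej1 it was above that in pair 1 by 1.08. With 1 clone of each kind in a pair, neither of these was tested. Neither result was kept with the mean of all probe sets, where each gene had the same sign in both pairs. Ptbp2 then differed by −0.05 in pair 1 and −0.62 in pair 2, and Nhej1 by 0.06 and 0.09. The second Nhej1 probe set, below the filter, differed by 0.58 in pair 1 and −0.43 in pair 2.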

How the results depend on the processing

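None of the 34 genes passed limma under any of the alternatives run, and the counts of genes higher, lower and opposite in the pairs moved by no more than 1.5 times. The 3 genes with both AID-silenced values above both controls (14.3% of all genes in the main setting) became 2 with median scaling. They became 4 with quantile normalisation or the mean of probe sets. The 5 genes below both controls (14.4% of all genes) became 4 with the mean of probe sets. The 2 probe sets called over the whole array became 8 with the pair as a block (replicate block) and 0 with the mean of probe sets, a table of fewer features, or without the trended, robust prior. For pair 2 against pair 1, the block of the group gave 4 in place of 0. Leaving out 1 clone gave 0 to 146 calls between groups (146 without the control clone of pair 1, 52 without that of pair 2, 0 when AID-silenced pair 1 was dropped) and 0 to 59 between pairs (59 without the AID-silenced clone of pair 2). It left 8 to 10 of the 34 genes with the remaining AID-silenced values above the controls. A further 9 to 16 had them below the controls, since fewer clones overlap less. The share of all tested genes was not counted with a clone left out, so these counts have no background and describe the 34 genes only. Median log2 differences then ran from −0.26 to 0.15 for base excision, −0.21 to −0.0390 for the break response, −0.0645 to 0.19 for end joining, −0.14 to 0.12 for mismatch and translesion and −0.07 to 0.10 for the AID cofactors, so that the sign depended on the clone left out for all but the break response. In pair 2 alone, an addition after the data were seen, the AID cofactors had a median of 0.18. Of the genes with the same sign in both pairs, Apex2 (−0.60 to 0.25), Xrcc1 (−0.27 to 0.0058) and Rpa2 (−0.0880 to 0.42) turned when 1 clone was left out, and the cause was not tested. Atm ran from −1.04 to −0.18, and Prkdc from 0.01 to 0.68. With 1 clone of a group left, it was assumed to vary like the other group, and within-pair counts could not be made. The MAS5 background steps could not be changed, and 2 clones per group limit what could be called.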
